A study of Mus musculus with 12 samples.

Results

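Collagen chain genes encode the polypeptide chains that assemble into collagens. They were taken here as every gene whose name on the array, or whose current RefSeq symbol reached through the probe's accession, is Col followed by a collagen type and a chain number. The rule found 42 genes, with 80 of the 41174 gene probes of the array. The 25418 genes tested included 41 of them; Col28a1 was not well above background on any array and was not tested. The 41 comprised 11 fibrillar, 6 basement membrane, 4 beaded filament, 9 fibril-associated, 4 network or anchoring, 4 transmembrane and 2 multiplexin chains, and 1 without a class (Col26a1).

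Collagen chains carry repeats of the amino acid glycine followed by any pair of residues, and chains with such repeats wind around each other into a helix inside the endoplasmic reticulum. Fibrillar collagens (types I, II, III, V, XI, XXIV and XXVII) are then trimmed outside the cell and cross-linked into fibrils, the main product of fibroblasts, whereas type IV collagen forms the sheet-like network of basement membranes, which early embryonic cells also lay down. Other classes attach to fibrils, form beaded filaments, anchor epithelia or span the plasma membrane.

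Some probes showed the repeat directly, because a glycine codon starts with GG and recurs every 9 bases. In 3 of the 41174 probes, GG stood at least 6 times in a row at that spacing in a frame without a stop codon, and all 3 belonged to fibrillar collagen genes. They are printed because the probes of Col5a1 and Col5a3 return below with differences of their own. Sequences and positions are those of the array design (mm7 build), 5′ to 3′, with the repeated GG in capitals; each probe is 60 bases long and spans more than that in the genome, so it bridges at least 1 intron.
Col5a1 (chr2:27994034-27996457, plus strand): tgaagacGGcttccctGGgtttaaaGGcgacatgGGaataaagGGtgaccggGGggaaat
Col5a3 (chr9:20655471-20656200, minus strand): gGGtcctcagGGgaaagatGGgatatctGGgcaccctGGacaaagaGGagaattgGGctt
Col11a2 (chr17:32131401-32131567, plus strand): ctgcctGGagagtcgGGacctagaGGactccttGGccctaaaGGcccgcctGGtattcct

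Total RNA of 12 mouse samples had been labelled with Cy3 and hybridised once per sample to a one-colour Agilent array. There were 9 lines of induced pluripotent stem (iPS) cells. BOiPS#1 and BOiPS#2 came from embryonic fibroblasts given the Polycomb gene Bmi1 and the pluripotency factor Oct4. SOiPS, OOiPS#1, OOiPS#2, POiPS#1 and POiPS#2 came from embryonic fibroblasts turned into neural stem cell-like cells with the hedgehog ligand Shh (SOiPS), oxysterols (OOiPS) or the Smoothened agonist purmorphamine (POiPS) and then given Oct4. OOiPS-TTF#1 and OOiPS-TTF#2 came from adult tail-tip fibroblasts given oxysterol and Oct4. The other arrays held Bmi1-transduced neural stem cell-like spheres from embryonic fibroblasts, 129/Ola embryonic stem (ES) cells, and mouse embryonic fibroblasts (MEF), 1 array each. All 9 lines thus carry added Oct4, the BOiPS lines and the spheres also carry added Bmi1, and ES and MEF carry neither. The labels do not say whether numbered lines are separate clones or cultures, so p-values measure the spread between these samples only, and spheres, ES and MEF were taken to vary as much as the lines do.

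All levels below are log2 processed signals minus the array's 75th percentile, so 0 is a bright spot, and differences are on the same log2 scale. A probe's brightness depends on its sequence, so levels of different probes do not compare amounts of RNA. Probes were set against each other only in choosing each gene's brightest probe, in medians and sums over lists, and where genes or probes are called bright, brightest or dim. Depth ran from 58.4% of gene spots well above background (SOiPS) to 80.0% (spheres); precision is limited by how few arrays there are. Of 11 measured pluripotency markers, all passed as higher in the lines than in MEF. The spheres had low pluripotency RNA (Pou5f1 -5.51 and Nanog -4.63, with 6 of 11 markers well above background) and had Nes, a neural stem cell and fibroblast gene, at 0.46, against 0.38 in MEF, but their neural stem cell marker Sox2 (-9.09) was not above background. Of 10 neural stem markers, 8 were well above background in each of the spheres, ES and MEF. The median of the 10 was -2.95 in the spheres, -3.40 in ES and -0.41 in MEF. Fibroblast RNA differed between lines: the median of 16 fibroblast markers, none a collagen, was 0.01 in OOiPS-TTF#2, -0.29 in POiPS#2 and -0.72 in OOiPS#1, between -3.50 and -1.65 in the other 6 lines, 0.34 in the spheres, -3.11 in ES and 2.95 in MEF. By the summed signal of the same markers BOiPS#1 was the highest line (68.4 times the 75th percentile), followed by POiPS#2 (65.3), OOiPS-TTF#2 (62.5) and OOiPS#1 (49.3).

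Setting the iPS lines against MEF asks how collagen genes differ from fibroblasts, the embryonic cells that 7 of the 9 lines started from; the other 2 came from adult tail-tip fibroblasts, which were not on an array. Of 41 collagen genes, 3 were higher in the lines with limma and Benjamini-Hochberg adjustment over all genes (7.83% of all genes were called higher) and 2 were lower (2.93% of all genes). The 3 higher genes were Col13a1, Col9a3 and Col22a1, and the 2 lower ones were Col4a2 and Col6a2. The 36 others did not pass. An unadjusted limma p under 0.05 was found for 13 of the 41, beside 6985 of all 25406 genes. No single line left out ended any of the 5 calls, but 4 genes passed as lower without BOiPS#1 and 5 without OOiPS-TTF#2. The median difference of the 41 was -0.34, beside 0.38 over all genes. In whole-culture RNA, fewer cells that make a transcript and less of it per cell cannot be told apart.

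**Figure D1:**
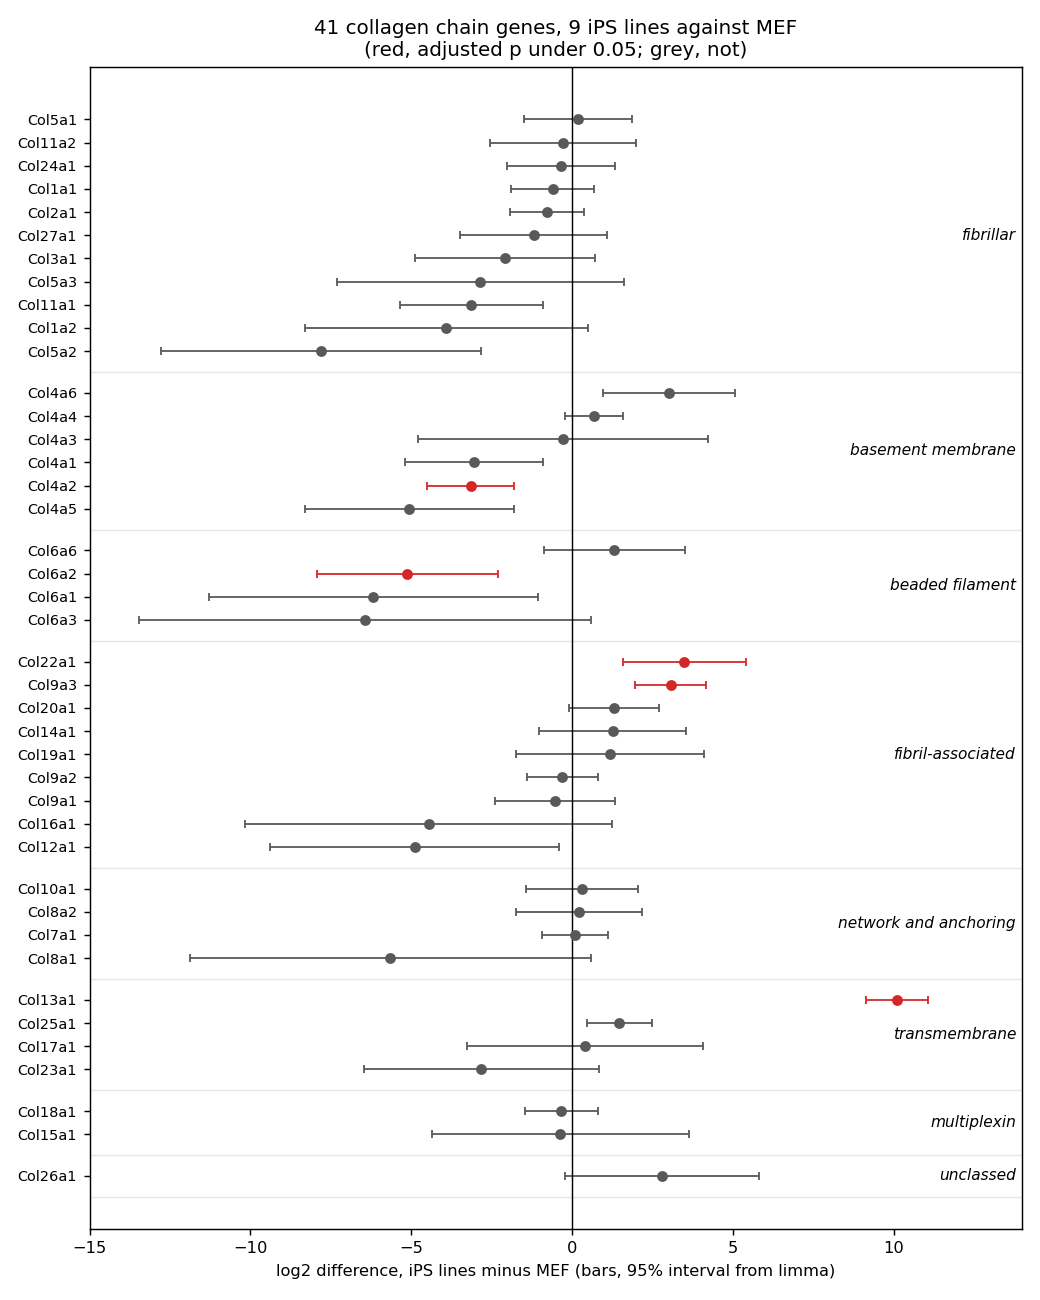
Difference between the mean of the 9 iPS lines and MEF (log2 units, x axis) for each of the 41 collagen genes tested, grouped by class, with the probe used for each gene. Red points passed the test and grey points did not. Col13a1 stands alone at 10.10, and every beaded filament gene except Col6a6 lies below -5.

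Among the fibrillar chains none of 11 passed in either direction with limma in the fit of 1 probe per gene, and their median difference was -1.20. Col1a2, a chain of type I collagen, the main collagen of fibroblasts, had -0.35, 0.00 and 4.90 as lowest, median and highest of the 9 lines, 4.89 in the spheres, 0.19 in ES and 5.24 in MEF, where its spot was saturated, so that every Col1a2 difference from MEF may be understated. OOiPS-TTF#2 (4.90), POiPS#2 (4.24) and OOiPS#1 (2.90) made up the upper end, the first of them level with the spheres, while POiPS#1 was at 0.96 and the other 5 lines lay at or below 0.00, near ES. The mean difference from MEF was -3.91 (SE 1.987, limma adjusted p = 0.232). The 3 high lines are those with the highest fibroblast marker medians above, though not the 3 highest by summed marker signal. Without them the difference was -5.25, and it passed (adjusted p = 0.00255). That alternative was chosen after seeing the data, here and for the genes below. Leaving out a gene's highest lines lowers the mean of the lines and can narrow their spread, so a pass gained that way is no added support. Among the lines left out singly below, OOiPS-TTF#2 was the highest for Col5a2 and Col4a1, OOiPS#2 for Col11a1 and BOiPS#1 for Col4a5.

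Col5a2, a chain of type V collagen that sits inside type I fibrils, had -7.91, -6.50 and -1.48 as lowest, median and highest line, -2.20 in the spheres, -7.23 in ES and 2.33 in MEF. It was well above background in 4 of 9 lines, and every line lay below MEF. The difference of -7.80 (SE 2.236) just missed the threshold (limma adjusted p = 0.0512) and passed without the 3 lines of highest fibroblast marker median (-8.76, adjusted p = 0.0156), or without any one of BOiPS#1, POiPS#2 and OOiPS-TTF#2 (adjusted p = 0.0483, 0.0421 and 0.0226). Col11a1, the type XI chain that starts thin fibrils, ran from -3.40 through a median of -1.73 to -0.03 in the lines, with -3.62 in the spheres, -1.85 in ES and 1.38 in MEF. All 9 lines were again below MEF, with a difference of -3.14 (SE 1.000, adjusted p = 0.0735), which passed without OOiPS#2 (-3.35, adjusted p = 0.038).

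Col3a1, the type III chain that accompanies type I in soft tissue, spanned -3.99 to -0.23 in the lines with a median of -2.37, and stood at -0.44 in the spheres, -3.82 in ES and -0.25 in MEF. OOiPS-TTF#2 (-0.23) and OOiPS#1 (-0.60) reached the level of spheres and MEF, and OOiPS#2 the level of ES. Col5a3, another type V chain, lay between -6.22 and 0.99 in the lines with a median of -0.64, against 1.46 in the spheres, -0.96 in ES and 1.99 in MEF. Every line was below MEF, and the lowest, POiPS#1, was not above background. The differences from MEF were -2.09 for Col3a1 and -2.85 for Col5a3, and neither passed.

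The difference from MEF was smaller for Col2a1 (-0.78), Col5a1 (0.18) and Col27a1 (-1.20) by the probe used, and none passed. Col2a1, the cartilage chain, lay between -0.72 and 0.80 in the lines with a median of -0.46, against 1.02 in the spheres, -1.02 in ES and 0.47 in MEF. OOiPS-TTF#2 was the line at 0.80, and the other 8 lay below MEF. Col5a1, the type V chain shared by most type V molecules, ran from 1.21 through 2.79 to 3.49 in the lines, with 3.82 in the spheres, 2.12 in ES and 2.49 in MEF. Col27a1, a chain of developing cartilage, ran from -3.96 through -2.81 to -1.09, with -5.26 in the spheres, -3.15 in ES and -1.29 in MEF. For Col5a1, 3 lines lay below MEF and 6 above, and for Col27a1, 8 lay below and 1 above. Col24a1 (median line -4.52) and Col11a2 (median line -5.00) were near background, each well above it in 6 and 5 of 9 lines. Col24a1 stood at -3.07 in the spheres, -4.81 in ES and -4.33 in MEF, and Col11a2 at -4.54 in the spheres, -5.42 in ES and -4.56 in MEF.

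**Figure D2:**
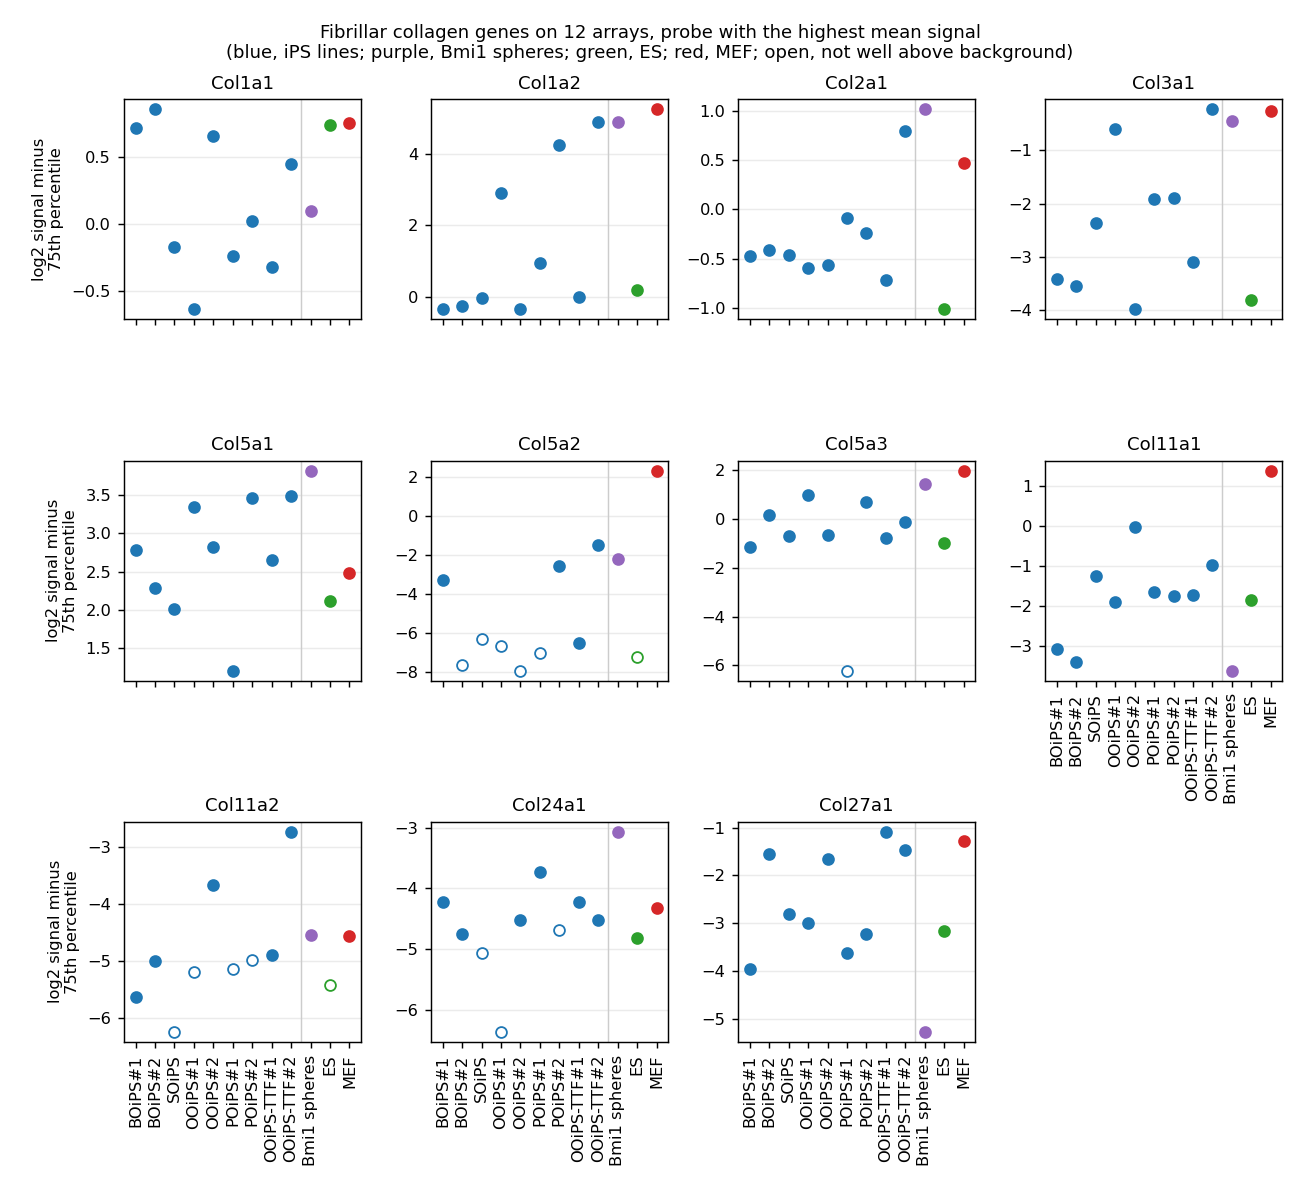
Level of each of the 11 fibrillar collagen genes on every array (log2 processed signal minus the array's 75th percentile; y axes differ between panels), with iPS lines in blue, spheres in purple, ES in green and MEF in red; open points were not well above background. Col1a2 reaches 4.90 in OOiPS-TTF#2, 4.89 in the spheres and 5.24 in MEF, whereas Col1a1, by the probe used, stays between -0.64 and 0.86 on all 12 arrays.

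Col1a1, the partner of Col1a2 in type I collagen, gave a result that depended on the probe. The probe with the highest mean signal, which stood for the gene, had -0.64, 0.02 and 0.86 as lowest, median and highest line, 0.10 in the spheres, 0.74 in ES and 0.76 in MEF. All groups overlapped, and the difference from MEF was -0.61 (SE 0.587, adjusted p = 0.515). A probe 12775 bases further along the gene had -6.80, -4.78 and -0.58 in the lines, -1.58 in the spheres, -5.40 in ES and 2.47 in MEF. There every line lay below MEF, and OOiPS-TTF#2 was the highest of them. Fitted by itself, this probe was lower in the lines by limma (difference -7.08, adjusted p = 0.0343, over 37796 probes). The last probe, 1023 bases further on and printed in 10 spots per array, spanned -6.88 to 1.24 with a median of -3.50, with 0.31 in the spheres, -4.90 in ES and 3.80 in MEF. Its difference was -7.25 and did not pass (adjusted p = 0.148). All 3 probes had a negative difference; the first pair is shown because the size of the Col1a1 difference and its call rest on the choice between them.
Col1a1, probe used (chr11:95047002-95047061, plus strand): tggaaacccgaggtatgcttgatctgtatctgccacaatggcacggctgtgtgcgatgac
Col1a1, probe lower in iPS lines (chr11:95059777-95059836, plus strand): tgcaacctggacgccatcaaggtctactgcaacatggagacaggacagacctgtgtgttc

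The same held for other members. Of 23 collagen genes with more than 1 probe well above background in MEF or in at least 5 lines, a limit set after seeing the data, 7 had probes that differed from MEF in opposite directions, and in 9 the probes lay over 3 log2 units apart in that difference. Each probe was also fitted separately, as an alternative chosen after seeing the data. Of 75 collagen probes, 7 were lower in the lines (2.6% of all probes were called lower) and 3 higher (6.61% of all probes). The 7 lower probes belonged to 7 genes and the 3 higher ones to 3. Besides Col1a1, Col4a2 and Col6a2, the 7 were Col11a1 (-3.88, adjusted p = 0.0168), Col24a1 (-6.28), Col5a1 (-2.71, adjusted p = 0.0417) and Col1a2. The called Col1a2 probe was well above background in MEF and the spheres but in no line, and was at least 8.19-fold lower in the lines (adjusted p = 0.0177). The called Col5a1 probe is the glycine repeat probe printed above: it had -5.04, -3.41 and -2.72 as lowest, median and highest line, -3.61 in the spheres, -6.02 in ES and -0.84 in MEF, all lines below MEF. For Col3a1 the other probe had -6.47, -5.40 and -0.05 in the lines, 2.01 in the spheres, -6.31 in ES and 1.78 in MEF. It put the lines further below MEF (-6.22) than the probe used did (-2.09). Between the 2 probes of Col24a1, 238203 bases apart, the difference was -0.34 by the probe used and -6.28 by the other.

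**Figure D3:**
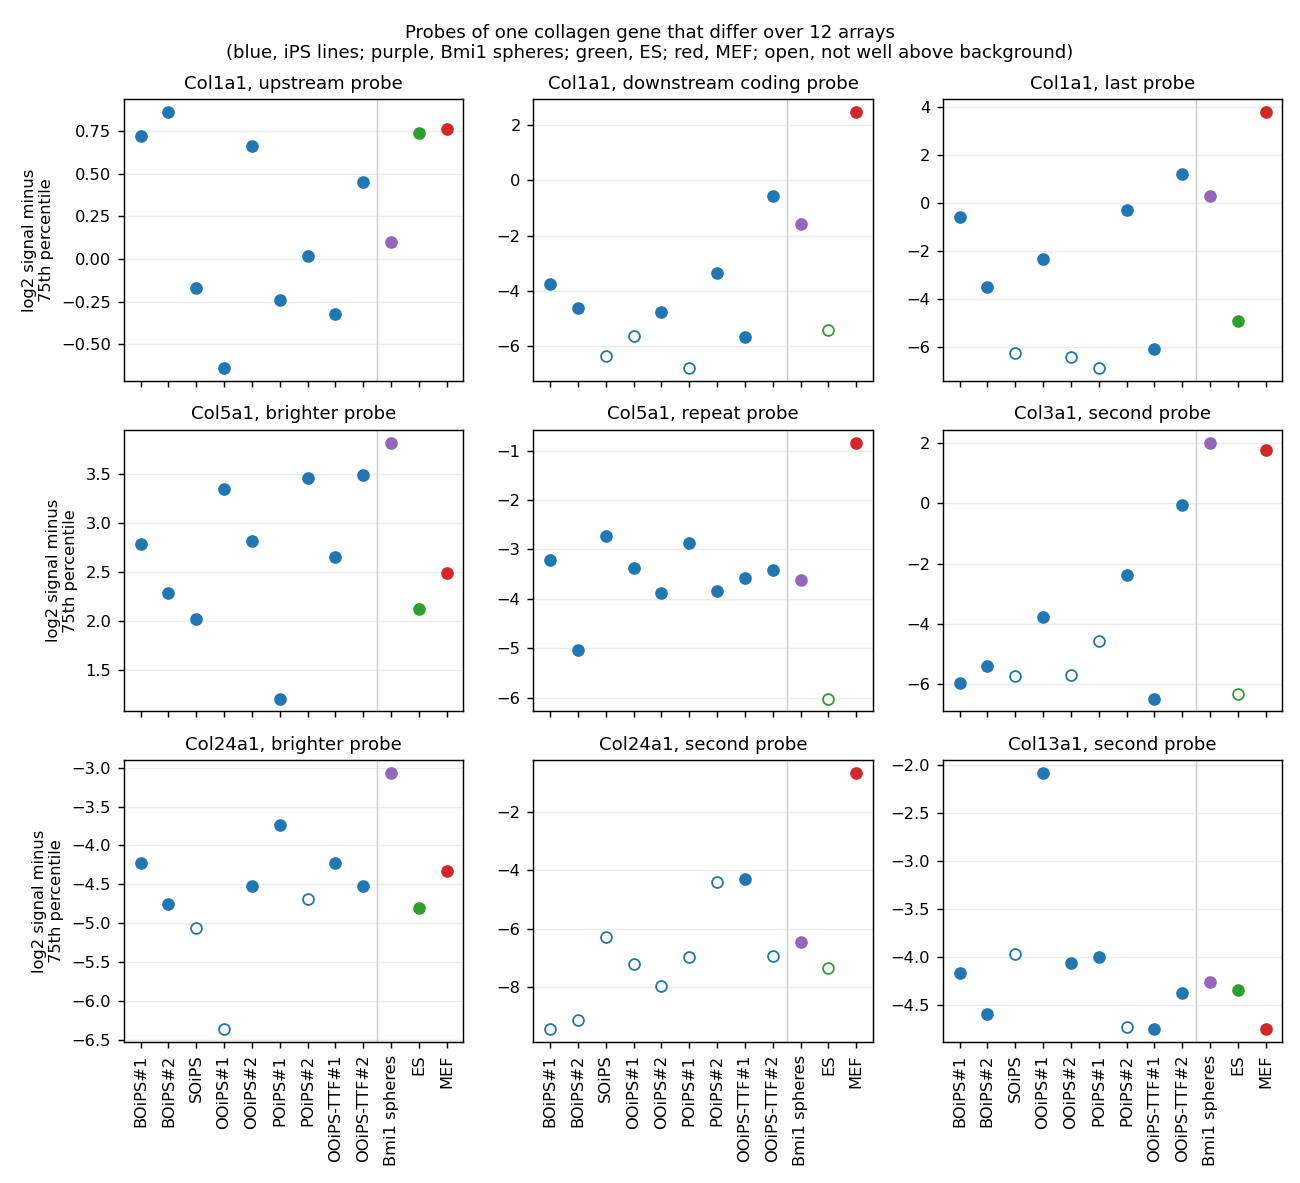
Level on every array (log2 processed signal minus the array's 75th percentile; y axes differ) for alternative probes of Col1a1, Col5a1, Col3a1, Col24a1 and Col13a1; colours and open points mark sample types and background as in the plot of fibrillar genes. The Col1a1 probe used is flat over all arrays, whereas the other Col1a1 probes stand at -5.40 and -4.90 in ES and at 2.47 and 3.80 in MEF.

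Of the 6 basement membrane chains, 1 was lower in the lines than in MEF and 5 did not pass, with a class median of -1.68. Col4a2, which with Col4a1 makes the common type IV network and is transcribed from a promoter shared with it, had -0.74, -0.12 and 0.79 as lowest, median and highest line, 1.18 in the spheres, 0.53 in ES and 3.05 in MEF. All 9 lines lay below the spheres and MEF, and 7 of 9 below ES. The difference from MEF was -3.15 (SE 0.609, limma adjusted p = 0.00924), and by a dimmer probe -2.58, which did not pass. Its partner Col4a1 had -2.43, -1.82 and -0.01 in the lines, -1.40 in the spheres, -0.26 in ES and 1.69 in MEF. Every line was again below MEF (-3.06, SE 0.963), without passing (adjusted p = 0.0705), and it passed without the 3 lines of highest fibroblast marker median (-3.67, adjusted p = 0.00697) or without OOiPS-TTF#2 alone (-3.23, adjusted p = 0.0491). Primitive endoderm cells lay down type IV collagen in the early embryo. Of 10 markers of theirs, 5 to 10 were above background in a line, 7 in the spheres, 8 in ES and 6 in MEF (Pdgfra is also on the fibroblast list). Their summed signal was 31.8 to 50.2 times the 75th percentile in the lines, 47.8 in the spheres, 52.8 in ES and 33.3 in MEF. Gata6 was the brightest of the 10 on every array (5.21 in the spheres, 5.17 in ES and 4.58 in MEF), and most of each sum is that gene. The median of the 10 was -4.59 to -0.74 in the lines, -1.27 in the spheres, -0.20 in ES and -2.99 in MEF. By limma 2 of the 10 were higher in the lines than in MEF (7.83% of all genes were called higher) and 0 lower. The part of primitive endoderm cells in the type IV result was not tested.

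Col4a5 and Col4a6, neighbours on the X chromosome that encode chains of specialised basement membranes, lay on opposite sides of MEF by the probes used. Col4a5 had -6.42, -4.60 and -2.03 as lowest, median and highest line, -0.91 in the spheres, -6.42 in ES and 0.75 in MEF. It was well above background in 5 of 9 lines, and all lines were below both the spheres and MEF (difference from MEF -5.06, SE 1.468, adjusted p = 0.0532). It passed without any one of BOiPS#1, OOiPS#1 and OOiPS-TTF#2 (adjusted p = 0.0315, 0.048 and 0.0422). Col4a6 had -1.54, -0.63 and 1.54 in the lines, 0.49 in the spheres, -0.68 in ES and -3.40 in MEF. Every line was above MEF (3.01, SE 0.928, adjusted p = 0.066), but another Col4a6 probe, 1442 bases away, gave -3.0, so the direction rests on the probe. Col4a4, a chain of the glomerular basement membrane, varied least of all collagen genes, between -1.71 and -0.87 in the lines with a median of -1.33, against -0.13 in the spheres, -1.58 in ES and -2.01 in MEF. Its partner Col4a3 was near background, with a median line of -6.16, -4.50 in the spheres, -3.85 in ES and -4.69 in MEF, but reached -1.23 in BOiPS#1 and -2.25 in OOiPS#2.

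**Figure D4:**
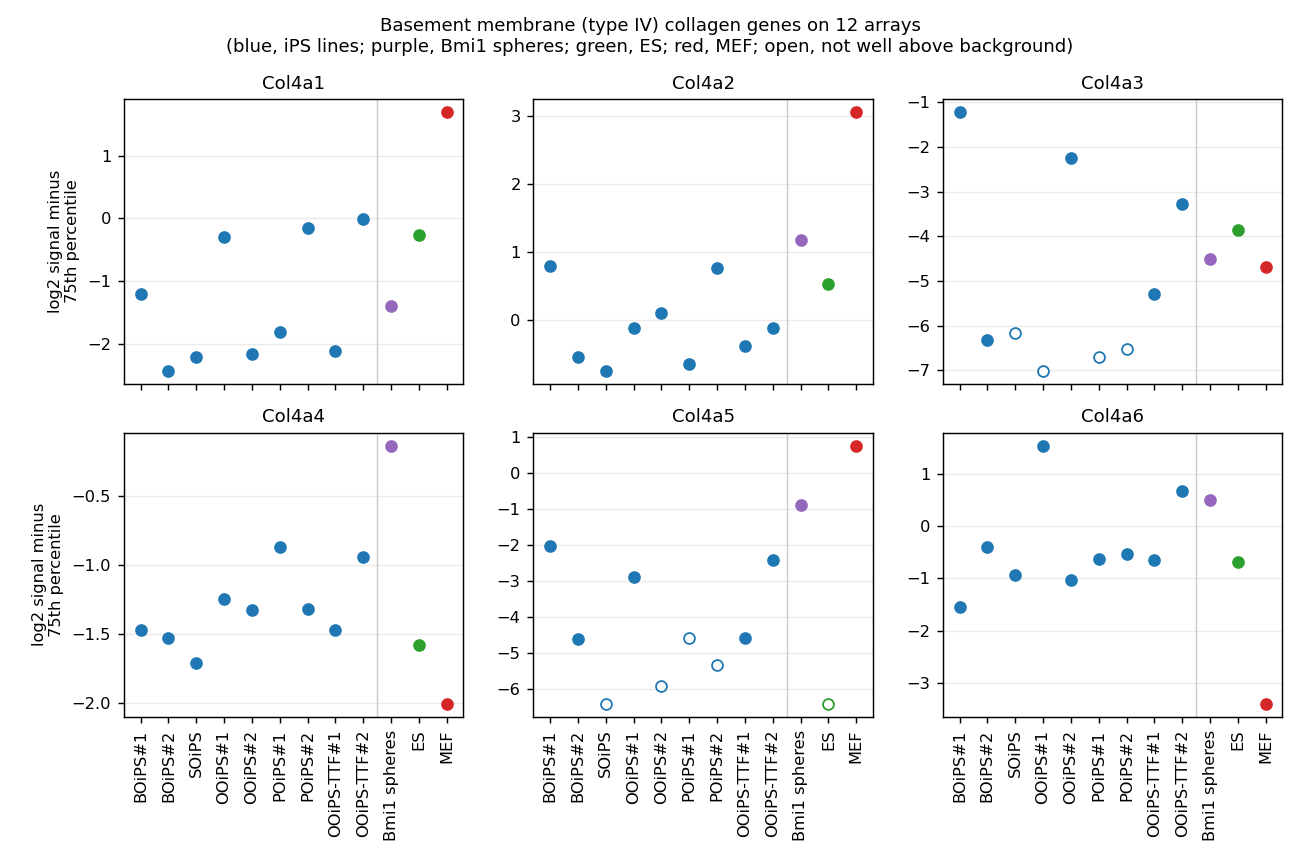
Level of the 6 type IV collagen genes on every array (log2 processed signal minus the array's 75th percentile; y axes differ), with colours and open points as in the plot of fibrillar genes. Col4a2 lies between -0.74 and 0.79 in the 9 lines and at 3.05 in MEF; in MEF, Col4a5 is at 0.75 and Col4a6 at -3.40.

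Type VI collagen forms beaded filaments around cells, each made of the chains of Col6a1, Col6a2 and a longer chain such as Col6a3. Of 4 genes tested, 1 was lower in the lines, and the class median was -5.65. Col6a2 had -5.58, -3.53 and -1.72 as lowest, median and highest line, -2.53 in the spheres, -4.24 in ES and 1.43 in MEF. All 9 lines lay below MEF, with a difference of -5.13 (SE 1.265, limma adjusted p = 0.0285), and on both sides of ES. The other Col6a2 probe, well above background in 1 line and in MEF, gave -1.53. Col6a1 had -9.31, -4.90 and -2.28 in the lines (3 of 9 above background), -2.60 in the spheres, -7.20 in ES and 0.87 in MEF. Its difference of -6.18 did not pass (adjusted p = 0.116). Col6a3 had -9.47, -2.39 and -0.76 in the lines (6 of 9 above background, the lowest not among them), against 3.32 in the spheres, -3.23 in ES and 2.56 in MEF. Every line was below the spheres and MEF, but the spread kept the difference of -6.44 from passing (SE 3.168, adjusted p = 0.218). A dimmer Col6a3 probe, well above background in 3 lines, averaged -6.28 in the lines against -4.5 in MEF, a smaller gap. The remaining Col6a3 probe was well above background in no line and not in MEF. Col6a6 was well above background in the spheres only. Col6a4 was reached only through an older gene name and is not counted as a member; it lay between -2.05 and -0.40 in the lines, at -1.18 in the spheres, -0.21 in ES and -1.87 in MEF.

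The remaining classes held the 3 higher genes. Col13a1 encodes the transmembrane collagen XIII, which sits at cell contacts. It had 2.99, 3.55 and 4.01 as lowest, median and highest line, 1.59 in the spheres, 4.24 in ES and -6.56 in MEF. The lines formed a tight group just below ES, above the spheres and far above MEF, with a difference from MEF of 10.10 (SE 0.427, limma adjusted p = 6.27e-07). That value comes from the probe at chr10:61356987-61357046. The other Col13a1 probe, 28939 bases away, had -4.75, -4.17 and -2.09 in the lines, -4.26 in the spheres, -4.34 in ES and -4.75 in MEF, all dim, and showed no such difference (0.66, adjusted p = 0.623). It is printed because the difference is absent from it; the glycine GG are in capitals, and the probe spans 370 bases, so it too bridges an intron.
Col13a1, probe without the difference (chr10:61385926-61386295, minus strand): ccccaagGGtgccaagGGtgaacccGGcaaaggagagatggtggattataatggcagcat

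Col9a3, a chain of type IX collagen that decorates type II fibrils in cartilage, had -0.38, 0.58 and 0.94 as lowest, median and highest line, -1.18 in the spheres, 1.08 in ES and -2.61 in MEF. All lines lay below ES and above the spheres and MEF (difference from MEF 3.06, SE 0.499, adjusted p = 0.00363). Its only probe is at chr2:181116761-181117343. The other type IX chains did not pass: Col9a2 was bright everywhere, between 3.22 and 4.49 in the lines with 4.21 in the spheres, 3.65 in ES and 4.39 in MEF, and Col9a1 was above background in the spheres only. Of 9 chondrocyte markers, 4 to 8 were above background in a line, 5 in the spheres, 5 in ES and 7 in MEF. Their summed signal was 2.37 to 10.1 times the 75th percentile in the lines, 31.4 in the spheres, 3.14 in ES and 12.7 in MEF. In the spheres (4.94) and MEF (3.51) Sox9 was the brightest of the 9, and most of the sum is that gene. The median of the 9 was -5.49 to -2.87 in the lines, -5.44 in the spheres, -4.93 in ES and -3.70 in MEF. In the lines 2 of the 9, the cartilage matrix genes Acan (2.60) and Hapln1 (2.71), were higher than in MEF by limma (7.83% of all genes were called higher) and 0 lower; 3 of the 9 had differences of -1 or below, without passing. The part of such cells in the Col9a3 result was not tested.

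Col22a1, a chain of tissue junctions such as that of muscle and tendon, had -1.56, -0.31 and 0.89 in the lines, -3.05 in the spheres, -0.34 in ES and -4.0 in MEF. Every line exceeded the spheres and MEF, and ES lay in the middle of them (difference from MEF 3.49, SE 0.855, adjusted p = 0.0277). The other Col22a1 probe, well above background in 6 lines, gave -0.17. Col25a1, a transmembrane chain of neurons, was higher in all 9 lines than in MEF (1.47, SE 0.454) without passing (adjusted p = 0.067).

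Col8a1 and Col12a1 showed how far single lines departed. Col8a1, a chain of short-chain networks under endothelia, had -5.85, -2.77 and 2.63 as lowest, median and highest line, 1.52 in the spheres, -5.30 in ES and 3.73 in MEF. BOiPS#1 was the line at 2.63, the only one above the spheres, and SOiPS at -5.85 was not above background. Col12a1, a chain on the surface of type I fibrils, was above background only in POiPS#1 (-4.18), OOiPS-TTF#2 (-3.30) and MEF (-2.07). Col16a1, a fibril-associated chain, ran from -7.00 (POiPS#1, not above background) to 0.62 (OOiPS#1) in the lines, with 1.73 in the spheres, -2.93 in ES and 1.29 in MEF. The lines' mean differed from MEF by -5.65 for Col8a1, -4.90 for Col12a1 and -4.46 for Col16a1, and none passed (adjusted p = 0.222, 0.15 and 0.289).

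**Figure D5:**
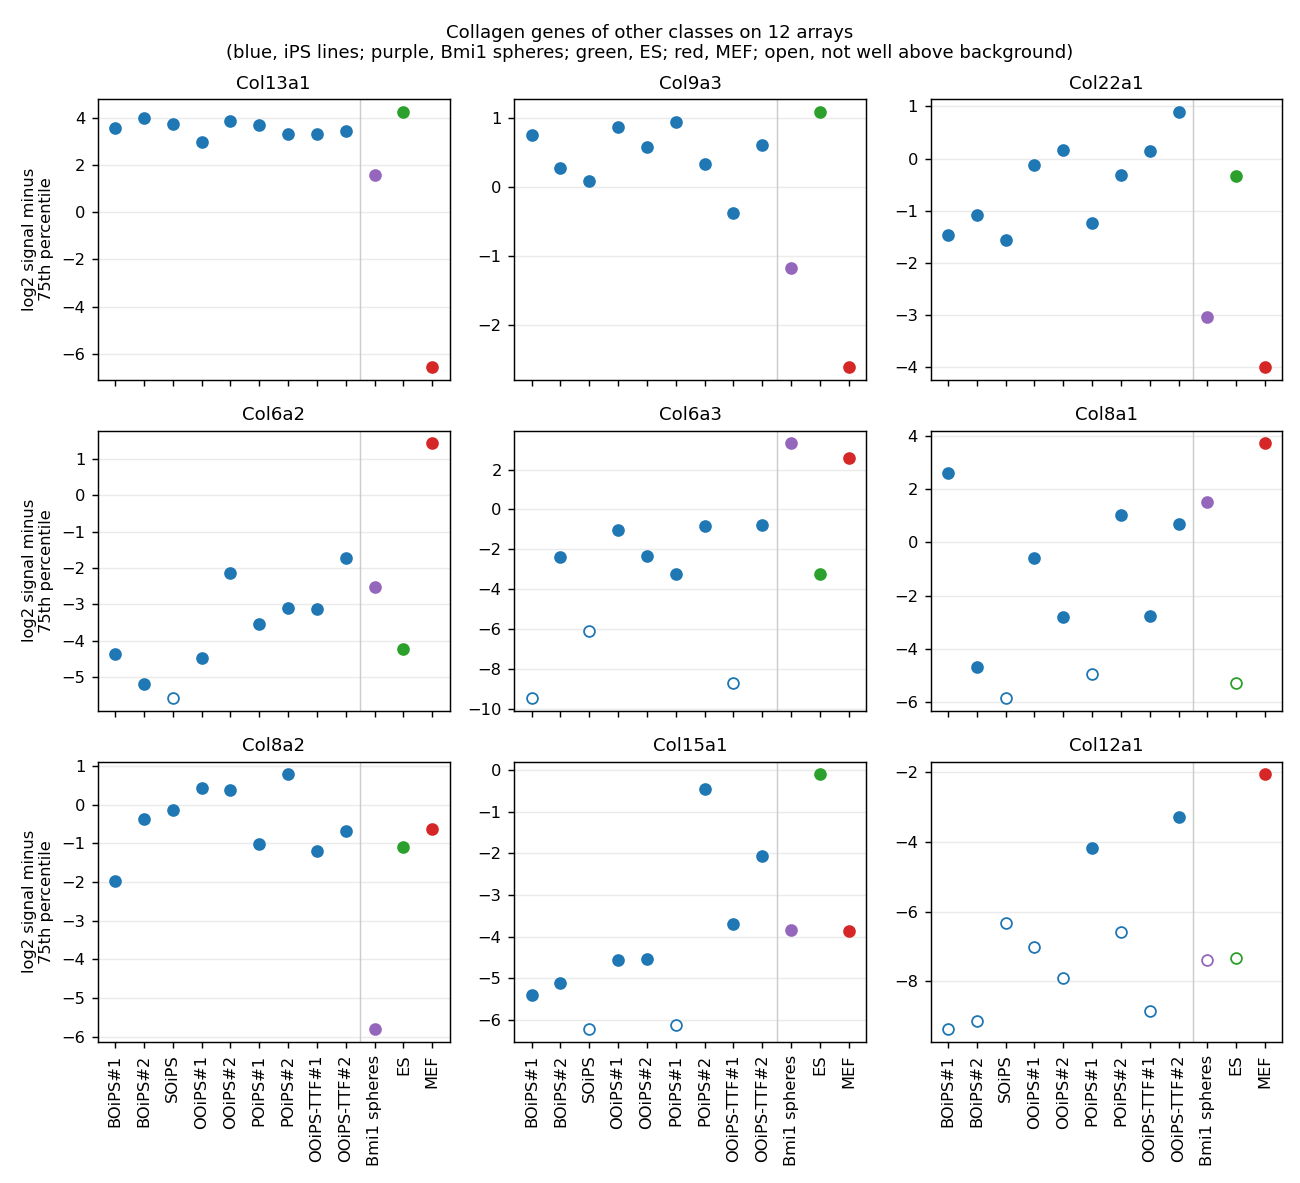
Level of 9 collagen genes of other classes on every array (log2 processed signal minus the array's 75th percentile; y axes differ), with colours and open points as in the plot of fibrillar genes. Col13a1 is at 2.99 to 4.01 in the lines and -6.56 in MEF; Col8a2 is between -1.98 and 0.78 in the lines and at -5.80 in the spheres.

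MEF, ES and the BOiPS lines shared a slide, and within it the 5 called differences were 10.35 for Col13a1, 3.12 for Col9a3, 2.72 for Col22a1, -2.92 for Col4a2 and -6.21 for Col6a2. They kept their direction, and with 2 lines against 1 array none passed (adjusted p from 0.13 to 0.222). With slide as a block over all arrays, Col22a1 (adjusted p = 0.131) and Col4a2 (adjusted p = 0.0541) no longer passed. With the mean of a gene's probes in place of 1 probe, Col22a1 (1.66, adjusted p = 0.332) and Col6a2 (-3.33, adjusted p = 0.104) did not pass.

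Of 30 measured genes that make and process collagen, from a list of 32, 7 were lower in the lines than in MEF by limma and 0 higher, with a median of -1.29. The 7 were Serpinh1, the collagen chaperone Hsp47 (-3.26, SE 0.585, adjusted p = 0.00614), Fkbp10 (-3.14) and Ppib (-1.31), both prolyl isomerases of the endoplasmic reticulum, P3h4 (-3.10), a partner of collagen lysyl hydroxylase, Pcolce (-1.65), an enhancer of procollagen trimming, and the cross-linking enzymes Loxl1 (-4.18) and Loxl3 (-5.29). Loxl3 was well above background on only 5 of the 12 arrays, so the size of its difference rests on dim signals in most lines. Of 10 collagen receptors 0 passed in either direction by limma, with a median of -2.14. The share of genes called lower was 2.93% over all genes. Fibroblast markers moved alongside: 6 of 16 were lower in the lines and 0 higher, with Postn, a fibroblast matrix gene, at least 82.6-fold lower. Loxl1 is on both lists, and Postn and Fap were well above background in MEF and in no line. The summed signal of the 16 markers was 32.1 to 68.4 times the 75th percentile in the lines, 92.7 in the spheres, 28.2 in ES and 204 in MEF. The part of remaining fibroblasts in these results was not tested.

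In the comparison with ES, which asks how far the lines matched embryonic stem cells, no collagen gene passed in either direction by limma (0.00788% of all genes were called higher and 0.0158% lower). Of all 25380 genes 1147 had an unadjusted p under 0.05, and of the 41 collagen genes 1 did. That gene was Col15a1, a multiplexin of vascular and muscle basement membranes, with -6.22, -4.56 and -0.45 as lowest, median and highest line, -0.11 in ES and -3.87 in MEF. All 9 lines lay below ES, and POiPS#2 (-0.45) came close to it. The difference from ES was -4.13 (SE 1.801, adjusted p = 1). The genes raised over MEF sat near ES, with differences and half-widths of the 95% interval of -0.70 ± 0.95 for Col13a1, -0.63 ± 1.11 for Col9a3 and -0.17 ± 1.90 for Col22a1. For Col1a2 the interval was wide (1.14 ± 4.41), as it was for Col8a1 (3.38 ± 6.23), which was well above background in 7 of 9 lines and not in ES. With 1 ES array, differences of several log2 units in such genes were not detectable.

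Set against the spheres, 2 collagen genes were higher in the lines (5.79% of all genes were called higher) and 0 lower by limma (2.89% of all genes). Without OOiPS-TTF#2, 1 collagen gene was lower. An unadjusted p under 0.05 was found for 11 of the 41, beside 5717 of all 25393 genes. The median of the 41 was -0.79, beside -0.03 over all genes. Col8a2, a chain of the hexagonal network of corneal basement membrane, had -1.98, -0.36 and 0.78 as lowest, median and highest line, -5.80 in the spheres, -1.10 in ES and -0.64 in MEF. The spheres stood below every other array, and the lines exceeded them by 5.38 (SE 0.882, limma adjusted p = 0.00365); on the slide that holds the spheres and 3 lines the difference was 4.84 (adjusted p = 0.0333). Col13a1 exceeded the spheres in all 9 lines by 1.95 (SE 0.427, adjusted p = 0.0183), and within that slide by 1.89, where it no longer passed (adjusted p = 0.151); nor did it with the mean of its probes (1.06, adjusted p = 0.216). The mean of the lines differed from the spheres by -7.20 for Col6a3, -4.90 for Col16a1 and -3.56 for Col1a2, and none passed. Other probes gave -1.86 and -0.62 for Col6a3, -3.71 for Col16a1 and -3.72 for Col1a2. The glycine repeat probe of Col5a3 printed above, fitted by itself, was lower in the lines (-3.28, SE 0.626, adjusted p = 0.0102): it had -4.69, -3.99 and -2.83 in the lines, -0.57 in the spheres, -5.67 in ES and -3.34 in MEF. The spheres were highest there, with all lines beneath them. Of the processing genes, Serpinh1 (-2.47) and the collagen transcription factor Creb3l1 (-2.50) were lower in the lines than in the spheres.

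Bmi1 spheres and MEF were compared as 1 array against 1, without a test, and a gene counted when the arrays lay at least 2-fold apart and the higher was well above background. By that count 11 collagen genes were higher in the spheres (32.4% of all genes were) and 13 lower (18% of all genes). Col3a1 lay within 2-fold by both its probes above background (-0.44 in the spheres and -0.25 in MEF by the probe used). Col1a2 was at 4.89 in the spheres and 5.24 in MEF, where the spot was saturated, and its other probe was lower in the spheres (-1.39). Col6a3 (3.32 in spheres, 2.56 in MEF) lay within 2-fold, while its partners Col6a1 (-2.60 in spheres, 0.87 in MEF) and Col6a2 (-2.53 in spheres, 1.43 in MEF) were lower in the spheres. By its other probes Col1a1 was lower in the spheres (-4.05 and -3.49), against -0.66 by the probe used.

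Other chains lower in the spheres included Col12a1 (at least 28.2-fold), Col8a2 (-5.16), Col11a1 (-5.00), Col5a2 (-4.53), Col27a1 (-3.97), Col4a1 (-3.09), Col8a1 (-2.21) and Col4a2 (-1.87). Those higher in the spheres included Col13a1 (8.15), Col4a6 (3.89), Col4a4 (1.87), Col25a1 (1.77), Col9a3 (1.43), Col5a1 (1.33) and Col24a1 (1.26). The called genes Col14a1 (at least 2.06-fold), Col9a1 (at least 3.56-fold), Col6a6 (at least 1.48-fold) and Col10a1 (1.11) completed the 11. Other probes gave smaller differences for Col13a1 (0.49), Col4a6 (0.21) and Col4a4 (0.34) and ran the opposite way for Col5a1 (-2.77), Col24a1 (-5.79) and the lower Col27a1 (1.45). Of 30 processing genes 3 were higher and 13 lower in the spheres. Plod2 (2.58), a lysyl hydroxylase of collagen, was higher, and Tll1 (at least 24.7-fold), which trims procollagens, Fkbp10 (-3.17), Bmp1 (-3.04), likewise a procollagen protease, and Lox (-2.01), the main cross-linking enzyme, were lower. Of 16 fibroblast markers 11 were lower in the spheres and 0 higher, with a median of -2.13.

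ES against MEF, again 1 array against 1, gave 7 collagen genes higher (25.6% of all genes) and 20 lower (21.6% of all genes). Of the 11 fibrillar chains 7 were lower in ES and 0 higher. Col5a2 was at least 206-fold lower, and lower too were Col1a2 (-5.05, 0.19 in ES and a saturated 5.24 in MEF), Col3a1 (-3.57), Col11a1 (-3.23) and Col5a3 (-2.95). Outside that class, Col8a1 was at least 522-fold lower, Col6a1 at least 74.9-fold and Col4a5 at least 68.7-fold, while the differences were -5.79 for Col6a3, -5.67 for Col6a2, -2.52 for Col4a2 and -1.95 for Col4a1. Higher in ES were Col13a1 (10.80), Col15a1 (3.76), Col9a3 (3.69), Col22a1 (3.66), Col4a6 (2.72), Col26a1 (2.32) and Col20a1 (1.45). By other probes Col13a1 differed by 0.41, Col4a6 was lower in ES (-2.82), and Col22a1 was at least 2.17-fold lower. Col6a3 differed by -0.51 by another probe. Col5a1 and Col24a1 differed by -0.37 and -0.48 by the probes used, but were at least 22.9-fold and 25.7-fold lower in ES by their other probes. Col1a1 was at 0.74 in ES and 0.76 in MEF by the probe used, but at least 227-fold lower in ES by the probe 12775 bases further along. Of 30 processing genes 1 was higher and 18 lower in ES, and of 10 receptors 0 and 6, among them Ddr2, a receptor for fibrillar collagen (at least 202-fold lower). Lox was at least 660-fold lower in ES. The iPS, spheres and ES comparisons with MEF share 1 MEF array.

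Between the groups of lines no collagen gene passed, and neither did any other gene (0% of all genes called higher and 0% lower in each of the 3 comparisons, by limma). For OOiPS-TTF against OOiPS lines, which were on different slides, 1639 of all 25403 genes had an unadjusted p under 0.05, and 1 of 41 collagen genes did. This was Col26a1, at -3.14 and -2.37 in the tail-tip lines, against -5.71 in OOiPS#2 alone, where it was not above background, since its spot on OOiPS#1 was an outlier and was left out (at least 7.78-fold higher, adjusted p = 0.764). For POiPS against OOiPS lines the collagen count was 0 (1230 of all 25407 genes). For BOiPS lines against the SOiPS, OOiPS and POiPS lines it was 5 (2503 of all 25358 genes). The BOiPS lines shared a slide that held none of the 5 other lines, so recipe and slide cannot be told apart in this comparison. Among the 5 genes, Col11a1 was at -3.08 and -3.40 in the BOiPS lines and at -1.91 to -0.03 in the 5 other lines. Its difference was -1.93. The others were Col14a1 and Col6a6, above background in no line, Col23a1 (1.88) and Col6a1. Col23a1 was at -1.51 and -1.11 in the BOiPS lines, inside the range of -6.21 (SOiPS) to -0.55 (OOiPS#2) of the 5 hedgehog-activated lines. Col6a1 was well above background in neither BOiPS line and in 2 of the 5 others.

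Lines of the same recipe differed in many of these genes. The counts that follow were made for collagen genes only, without the share over all genes. Whether collagen genes stand apart from other genes in them was not tested. Among the collagen genes well above background in both lines, BOiPS#1 and BOiPS#2 lay at least 2-fold apart in 12 of 32, OOiPS#1 and OOiPS#2 in 13 of 28, POiPS#1 and POiPS#2 in 9 of 24, and OOiPS-TTF#1 and OOiPS-TTF#2 in 14 of 33. All 14 of the tail-tip pair were higher in OOiPS-TTF#2. Of the 20 collagen genes well above background in all 9 lines, 4 spanned over 3 log2 units (Col1a2 with 5.25, Col3a1 with 3.76, Col11a1 with 3.37 and Col4a6 with 3.08) and 7 under 1.5, of which Col4a4 (0.84), Col13a1 (1.02) and Col25a1 (1.19) had the smallest ranges. OOiPS-TTF#2 was the highest line for 13 of the 37 collagen genes whose highest line was well above background, and for 6 of the 11 fibrillar ones, while OOiPS-TTF#1, made the same way, was highest for 1 gene, the fibrillar Col27a1.

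Summed over the fibrillar probes used, the signal was 47.4 times the 75th percentile in OOiPS-TTF#2, 34.3 in POiPS#2 and 22 in OOiPS#1, 6.83 to 12.2 in the other 6 lines, 50.9 in the spheres, 8.69 in ES and 59.5 in MEF. A sum weighs the brightest probes most: the Col1a2 probe gave 63.0% of it in OOiPS-TTF#2, and without that probe the sums were 17.5 in OOiPS-TTF#2, 15.4 in POiPS#2, 14.6 in OOiPS#1, 4.89 to 11.4 in the other 6 lines, 21.2 in the spheres, 7.55 in ES and 21.6 in MEF. The same 3 lines were the highest for the fibroblast marker Dcn, which binds collagen fibrils (2.02 in OOiPS-TTF#2, 2.02 in POiPS#2 and -0.48 in OOiPS#1, against 2.99 in the spheres, -7.33 in ES and 4.67 in MEF), and for Lox (2.44, 1.27 and 0.18, against 2.00 in the spheres, -7.08 in ES and 4.01 in MEF). Other fibroblast markers were ordered differently: Thy1 was highest in BOiPS#2 (1.27), Fn1 in SOiPS (2.09) and S100a4 in BOiPS#1 (5.02), and Pdgfra was lowest in OOiPS#1 (-4.37). Postn was not well above background in any of the 3 lines. Whether these levels come from remaining fibroblasts or from the iPS cells was not tested. Some bright collagen genes were even on all arrays, among them Col7a1, the anchoring fibril chain (2.68 to 3.90 in the lines, 2.66 in the spheres, 3.0 in ES and 3.29 in MEF), and Col18a1, the multiplexin whose end fragment is endostatin (2.45 to 3.69 in the lines, 3.41 in the spheres, 2.64 in ES and 3.66 in MEF).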

How the data were processed

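Intensity values are processed signals deposited as Agilent Feature Extraction output, background-subtracted and not scaled between arrays, per the file headers; flags for background, saturation and outliers (the other deposited columns used) come from the same output. The headers name Feature Extraction 9.5.3.1; any further upstream steps are not stated there. From these values, outlier spots were left out, spots of a probe averaged as log2, and each array's 75th percentile subtracted. Among a gene's probes well above background on 1 array or more, the one of highest mean signal stood for the gene. RefSeq gave 22951 probes their name by accession and 9758 by symbol or synonym, and 8465 kept the deposited name. Sequences and mm7 positions are the array design's, from the same files.

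The 9 lines as a class, spheres, ES and MEF were fitted with limma (8 residual degrees of freedom), and the 8 groups separately for comparisons between lines (4), with Benjamini-Hochberg adjustment over all genes and a threshold of 0.05. Spheres or ES against MEF had no test. A bound ("at least") replaces a dim signal by its array's floor, the lowest signal of a probe well above background. Marker medians and sums use the same values. The fit was tested on simulated data. Alternatives were normexp background, quantile normalization, other scaling and filters, mean of probes, intensity trend, slide as a block, fits within a slide, leaving out lines, a replicate block, a 3-fold threshold and pooled limma; separate probes and leaving out the 3 lines of highest fibroblast marker median were added after seeing the data.

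Members and lists were chosen with earlier results of these data known. Any collagen gene above background could be named, and processing and receptor genes among those that changed most. Of the markers, Pou5f1, Nanog, Postn, Dcn, Sox2 and Nes could be named. Fap, Thy1, Fn1, S100a4, Pdgfra, Acan, Hapln1, Sox9, Gata6, Col6a4 and the Lox values by line were named after their values were seen. R 4.3.3, limma 3.58.1 and Python 3.11.15 were used.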

Additional observations from a re-analysis of the deposited data

Results flagged for a closer look

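Over the 9 iPS lines, 38 collagen genes were examined for a line standing far from the others, by the gap to its neighbour as a share of the range (Dixon's 95% value), and 4 had one; chance flags about 1 in 20. Col2a1 was at 0.80 in OOiPS-TTF#2, with the next line at -0.09, and it is the only one of the 4 that was well above background. The other 3 were low and not well above background: Col5a3 at -6.22 in POiPS#1 (next line -1.15), Col23a1 at -6.21 in SOiPS (next line -2.37) and Col24a1 at -6.36 in OOiPS#1 (next line -5.06). Their causes were not tested.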

How the results depend on the processing

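Against MEF, the count of collagen genes higher in the lines (3) was 3 to 4 with each line left out in turn and 0 within 1 slide. The count lower (2) was 6 with normexp background, 4 with at least 6 arrays above background, 4 with an intensity trend, 0 within 1 slide, 2 to 5 with each line left out (4 without BOiPS#1, 5 without OOiPS-TTF#2), 5 without the 3 lines of highest fibroblast marker median and 7 by separate probes. Against the spheres, the count higher (2) was 1 with the mean of probes, with slide as a fixed block, with 8 groups and within 1 slide, and 2 to 3 with lines left out; the count lower (0) was 1 with normexp, 2 with quantile normalization, 0 to 1 with lines left out (1 without OOiPS-TTF#2), 1 without the 3 fibroblast-marker lines and 1 by separate probes. Against the hedgehog-activated lines, BOiPS had 1 lower gene without a filter, where 2335 of all genes were lower. Spheres against MEF (11 higher, 13 lower) gave 6 higher with normexp, 7 higher at 3-fold, and 1 higher and 1 lower with pooled limma; ES against MEF (7 and 20) gave 2 and 0 with pooled limma. Directions turned for Col22a1 by its other probe (-0.17), for Col1a1 with slide as a fixed block or within 1 slide (0.03), and for Col5a1 with the mean of probes (-1.26), without the 3 lines (-0.20) and by its other probe (-2.71); in spheres against MEF, with the mean of probes, Col23a1 (0.99), Col24a1 (-2.26) and Col5a1 (-0.72). The replicate block on clone numbers left every count between groups of lines at 0; the numbers did not pair the samples (correlations -0.164 to 0.244). Over all genes, lines against MEF (1989 higher, 745 lower) gave 1723 and 1167 with normexp, 1267 and 494 with slide as a fixed block, 1447 and 486 with 8 groups, and 0 within 1 slide; lines against ES gave 7 and 77 with quantile normalization. Of the other values of single genes, 536 counted as kept. In tested comparisons that meant the same direction and side of the threshold. For spheres or ES against MEF, without a test, it meant the same direction and a shift under the standard deviation of the iPS lines. A further 25 newly passed the threshold, 17 no longer passed, and 33 without a test shifted by more than that. The causes were not tested. Single MEF, ES and sphere arrays and dim probes limit every value.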
